A study of Mus musculus with 6 samples.

Results

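The genes described here are 10 members of 3 families of calcium- or sugar-binding proteins: S100a4, S100a6, S100a10 and S100a11 of the S100 family, Anxa1, Anxa2, Anxa5 and Anxa6 of the annexins, and Lgals1 and Lgals3 of the galectins. They were taken by symbol from the 27179 gene numbers of a mouse count table, and all 10 were found and passed the filter on low counts. RNA was sequenced from gBT-I tg mouse cells, labelled tg CD8+ T cells and carrying a transgenic T cell receptor for a herpes simplex virus peptide, at 3 libraries per group. Butyrate libraries came from spleen cell cultures that were activated with the gB498-505 peptide plus lipopolysaccharide, received butyrate from day 3 and were harvested on day 6, with IL-2 supplied between day 2 and day 5. Control libraries came from cultures handled in the same way, with no butyrate named in their labels. Both groups therefore share the transgene, the peptide, the lipopolysaccharide and the IL-2. The labels give neither the butyrate dose nor the age of the mice, and do not say whether T cells were sorted from the cultures or whether replicates came from separate mice, so p-values measure only the spread between these libraries, which may be technical.

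Butyrate is a short-chain fatty acid made by gut bacteria that inhibits histone deacetylases. S100 proteins are small EF-hand proteins that mostly bind calcium and then grip a target protein, and several of them dock on the end of an annexin. Annexins bind membranes that hold acidic phospholipids when calcium is present, and with S100 partners they join membranes, repair them or tie them to actin. Galectins bind galactose-bearing sugar chains, and on T cells they cross-link glycoproteins such as CD45 and CD43 and set how freely receptors move. Activated and memory CD8+ T cells are known to carry more of several of these transcripts than naive cells do.

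With butyrate, Lgals3, S100a11, Anxa2 and S100a10 rose and Anxa5 fell, while S100a4, S100a6, Anxa1, Anxa6 and Lgals1 did not pass the test. Lgals3 was 3.43-fold higher, S100a11 1.93-fold, Anxa2 1.92-fold and S100a10 1.70-fold, and Anxa5 was 1.78-fold lower. The call was an adjusted p under 0.05 from edgeR's quasi-likelihood test over 11740 genes. By that rule 45.9% of all genes tested were called, 23.5% higher and 22.5% lower, beside 4 of the 10 members higher and 1 lower. Higher genes made up 51.1% of all calls and lower genes 48.9%, and with upper quartile scaling 61.8% and 38.2%. The groups did not overlap for 5 of the 10 members, and for 57.1% of the genes tested. The members' median log2 fold change was 0.46, beside 0.003 over all genes tested. In bulk RNA, a change in the number of cells that carry a transcript and a change in the amount per cell cannot be told apart.

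Promoter sequence was available for 7 of the 10 members from RefSeq (GRCm38.p6), and 4 are shown because they belong to 3 members that rose and to the 1 that fell. Each run is the 250 bases before the annotated start, 5′ to 3′ on the gene's strand. Capitals mark the letters TGANTCA, the site bound by AP-1 factors, and the GC box GGGCGG, which reads CCGCCC on the other strand.
S100a11, chr3:93520246-93520495, plus strand: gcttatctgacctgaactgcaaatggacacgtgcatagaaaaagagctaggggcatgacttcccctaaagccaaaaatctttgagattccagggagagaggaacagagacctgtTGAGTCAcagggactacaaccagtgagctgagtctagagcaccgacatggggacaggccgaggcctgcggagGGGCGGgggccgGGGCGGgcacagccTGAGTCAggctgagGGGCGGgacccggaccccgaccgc
Anxa2, chr9:69453433-69453682, plus strand: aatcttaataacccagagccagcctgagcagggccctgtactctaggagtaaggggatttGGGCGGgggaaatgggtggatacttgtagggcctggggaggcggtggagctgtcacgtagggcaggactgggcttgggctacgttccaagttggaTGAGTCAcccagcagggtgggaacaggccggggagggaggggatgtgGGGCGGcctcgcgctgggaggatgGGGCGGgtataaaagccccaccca
Lgals3, chr14:47373610-47373859, plus strand: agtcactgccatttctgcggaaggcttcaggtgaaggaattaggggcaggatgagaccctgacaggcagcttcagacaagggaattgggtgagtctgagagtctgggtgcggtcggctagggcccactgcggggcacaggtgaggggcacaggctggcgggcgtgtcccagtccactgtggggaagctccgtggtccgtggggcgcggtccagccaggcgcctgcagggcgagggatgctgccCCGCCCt
Anxa5, chr3:36475888-36476137, minus strand: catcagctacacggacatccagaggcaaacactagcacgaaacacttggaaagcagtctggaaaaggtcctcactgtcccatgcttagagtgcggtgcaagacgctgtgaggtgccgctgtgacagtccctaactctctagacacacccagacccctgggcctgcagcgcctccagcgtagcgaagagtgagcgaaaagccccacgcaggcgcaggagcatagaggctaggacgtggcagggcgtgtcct
S100a11 held TGANTCA at 136 and 38 bases before its start and GC boxes at 64, 52 and 24 bases. In Anxa2 the AP-1 letters stood at 95 bases, GC boxes at 190, 48 and 24 bases, and the TATA box letters TATAAA at 17 bases. Lgals3 held 1 GC box, on the other strand, at 7 bases. Anxa5 and S100a6 held none of these letters, and S100a4 and Anxa1 held TATAAA alone, at 31 and 32 bases. No occurrence overlapped another. Over 32817 promoter windows of the same length, read on both strands, 6.75% held TGANTCA, 32.7% GGGCGG and 12.4% TATAAA, so the GC box is common and the match is a description only. S100a10, Anxa6 and Lgals1 are named without a sequence.

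The S100 members are described first. S100a10, also called p11, has lost the ability to bind calcium and holds Anxa2 in a complex at the plasma membrane. S100a10 (chromosome 3, 93555117 to 93564645, gene 20194) had 1566, 1436 and 1376 CPM (read counts relative to the library total, TMM-scaled) in butyrate libraries 1, 2 and 3, against 771, 718 and 1082 CPM in control libraries 1, 2 and 3. Every butyrate library lay above every control library, and control library 3 lay nearest to them. The log2 fold change was 0.77 (SE 0.152, edgeR adjusted p = 0.00345), and within pairs it was 1.02, 1.0 and 0.35.

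S100a11 is a calcium-dependent partner of Anxa1 and of other annexins in membrane repair. S100a11 (chromosome 3, 93520496 to 93526288, gene 20195) had 276, 265 and 316 CPM in butyrate libraries, against 142, 150.05 and 153 CPM in control libraries. The groups were far apart, with little spread inside either. Its log2 fold change of 0.94 had the smallest SE of the 10 members (0.0911, edgeR adjusted p = 0.000113), and within the replicate pairs it was 0.95, 0.82 and 1.05.

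S100a4, which binds non-muscle myosin and is known for its part in cell movement, was far more variable. S100a4 (chromosome 3, 90603770 to 90606045, gene 20198) had 1314, 1023 and 650.3 CPM in butyrate libraries, against 799, 396 and 734 CPM in control libraries. Butyrate library 3 fell inside the control range, and control library 2 lay below all the others. Within pairs the log2 fold change was 0.72, 1.37 and -0.17. The mean was 996 ± 333 CPM with butyrate and 643 ± 217 CPM in control (SD, n = 3 each), for a log2 fold change of 0.63 (edgeR adjusted p = 0.11, SE 0.294). With the replicate number as a block the value was 0.64 (SE 0.235) and the adjusted p 0.0474, and without butyrate replicate 3 it was 0.86 with an adjusted p of 0.0348. The call of S100a4 therefore depends on these settings, and the adjusted p ran from 0.0348 to 0.323 over the alternatives.

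S100a6, or calcyclin, binds the calcyclin-binding protein and several annexins. S100a6 (chromosome 3, 90612894 to 90614414, gene 20200) had 253, 618 and 774 CPM in butyrate libraries, against 869, 285 and 721 CPM in control libraries. Both groups held 1 library at a low level, butyrate library 1 and control library 2, and the ranges overlapped almost whole. Its log2 fold change was -0.19 (SE 0.447, edgeR adjusted p = 0.752), and within pairs it was -1.78, 1.12 and 0.10. Among butyrate libraries, library 1 had the highest S100a4 and the lowest S100a6.

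**Figure D1:**
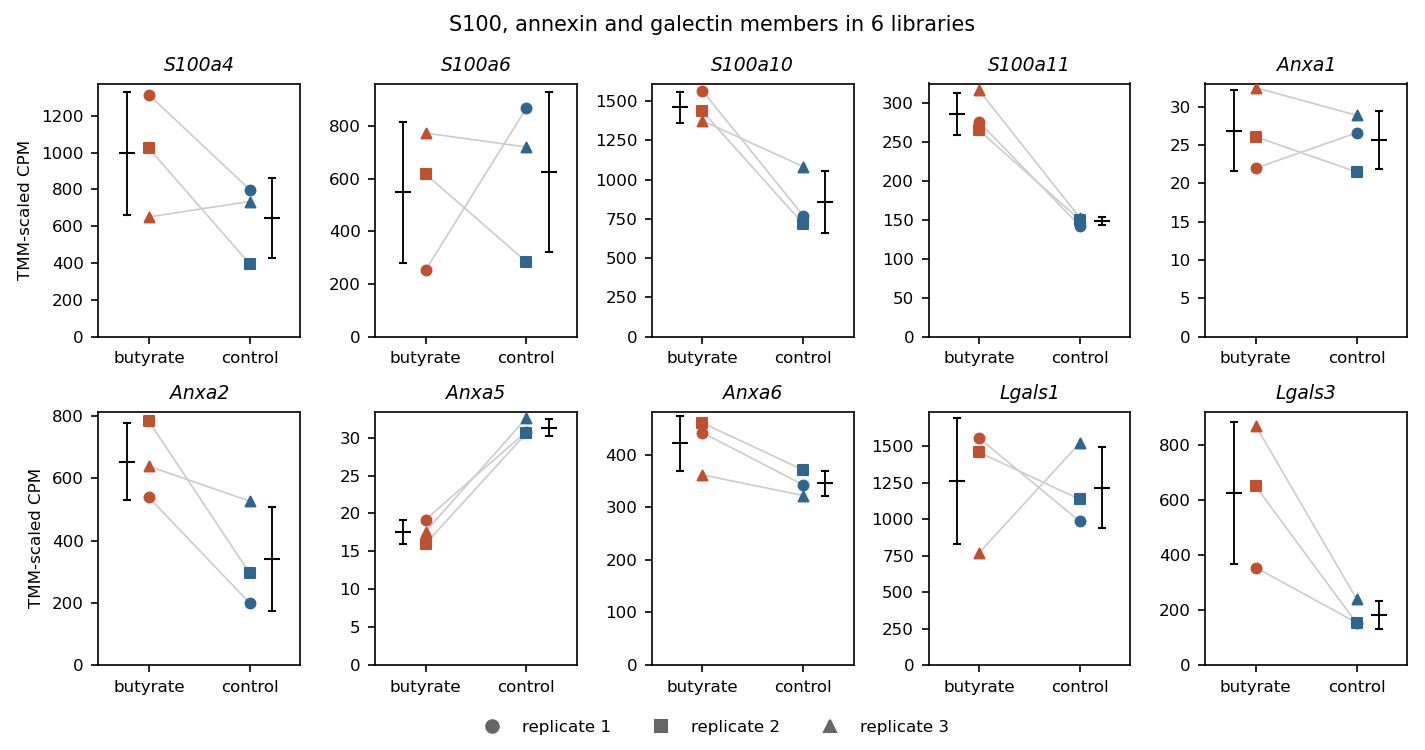
CPM of each of the 10 members in each library (y axis, CPM from 0), butyrate left of control, with grey lines joining libraries of the same replicate number and bars showing the mean ± SD (n = 3). S100a10, S100a11, Anxa2 and Lgals3 lie higher with butyrate and Anxa5 lower, while S100a6 and Lgals1 overlap.

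Of the annexins, Anxa2 binds S100a10 and carries plasminogen-binding and membrane-bridging activity. Anxa2 (chromosome 9, 69453683 to 69491792, gene 12306) had 539, 784 and 639.6 CPM in butyrate libraries, against 199, 295 and 527 CPM in control libraries. The groups did not overlap, but butyrate library 1 and control library 3 nearly met. Its log2 fold change was 0.94 (SE 0.305, edgeR adjusted p = 0.0321), and within pairs it was 1.43, 1.41 and 0.28. The call was lost with DESeq2 (adjusted p = 0.0726) and with the robust edgeR fit (0.0901). It was also lost without butyrate replicate 2 (log2 0.79, adjusted p = 0.108) or 3 (0.96, 0.0625) and without control replicate 1 (0.68, 0.0611) or 2 (0.86, 0.0994). With the replicate number as a block the call was kept (log2 1.04, SE 0.204, edgeR adjusted p = 0.00284). Over the alternatives the adjusted p of Anxa2 ran from 0.00174 to 0.108.

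Anxa5 binds phosphatidylserine and is used to stain dying cells. Anxa5 (chromosome 3, 36448923 to 36475887, gene 11747) had 19.2, 16 and 17.6 CPM in butyrate libraries, against 30.8, 30.6 and 32.6 CPM in control libraries, or 104, 93 and 95 counts against 171, 165 and 201. All butyrate libraries lay below all control libraries, and both groups were tight. It was the only member called lower, by a log2 fold change of -0.83 (edgeR adjusted p = 0.000532, SE 0.114), with pairs at -0.68, -0.94 and -0.89.

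Anxa6 has a doubled annexin core and links membranes to actin and cholesterol. Anxa6 (chromosome 11, 54978953 to 55033471, gene 11749) had 442, 460.3 and 361 CPM in butyrate libraries, against 342, 371 and 322 CPM in control libraries. Butyrate library 3 lay inside the control range. The log2 fold change of Anxa6 was 0.29 (SE 0.109, edgeR adjusted p = 0.0575), and within pairs it was 0.37, 0.31 and 0.17. It passed with the replicate block (0.28, SE 0.0771, adjusted p = 0.0141), with upper quartile scaling (0.0212), total counts (0.0486), a stricter filter of 5 CPM in 3 libraries (0.0411), DESeq2 (0.0441) and without butyrate replicate 3 (0.39, 0.0131). Under the alternatives its adjusted p ran from 0.0131 to 0.182.

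Anxa1, which is induced by glucocorticoids and acts on formyl peptide receptors to damp inflammation, was low. Anxa1 (chromosome 19, 20373434 to 20390671, gene 16952) had 22, 26.1 and 32.5 CPM in butyrate libraries, against 26.6, 21.5 and 28.9 CPM in control libraries. The groups overlapped widely, and the log2 fold change was 0.06 (SE 0.168, edgeR adjusted p = 0.779). Within pairs it was -0.28, 0.28 and 0.17.

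Lgals3, a galectin that forms oligomers through its tail and binds N-glycans of the T cell receptor complex, had the largest fold change of the 10 members. Lgals3 (chromosome 14, 47373860 to 47386167, gene 16854) had 355, 650.6 and 871 CPM in butyrate libraries, against 154, 152 and 240.3 CPM in control libraries. Every butyrate library lay above every control library, though butyrate libraries 1 and 3 differed by 2.46-fold. Its log2 fold change was 1.78 (SE 0.308, edgeR adjusted p = 0.00173), and within pairs it was 1.20, 2.10 and 1.86. Leaving out each library in turn gave 1.46 to 2.06.

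Lgals3 is also a macrophage gene, so markers of that lineage are given beside it. Over 18 macrophage and dendritic cell markers the summed level was 99.1 to 106 CPM in butyrate libraries and 29.5 to 89.1 CPM in control libraries. Itgam alone held 51.0, 48.0 and 33.3 CPM of the butyrate sums, against 4.68, 3.34 and 4.22 CPM of the control sums. The gap between the sums therefore rests largely on 1 gene. Of 6 tested, 2 were higher and 0 lower: Itgam, at 44.1 ± 9.5 CPM with butyrate and 4.08 ± 0.682 CPM in control, and Zbtb46, at 2.96 CPM and 0.551 CPM, which reached the filter through the butyrate libraries alone. Adgre1, Fcgr1, Ms4a7 and Flt3 had at most 3 counts in every library, and Lyz2 had 10.2, 27.2 and 37.7 CPM with butyrate against 13.7, 8.35 and 45.6 CPM in control. The other 4 tested markers, Lyz2 among them, were not called. The higher calls were 33.3% of the markers tested, beside 23.5% of all genes tested. The part of such cells in the Lgals3 result was not tested.

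Lgals1 forms dimers and, when secreted, can kill or silence activated T cells. Lgals1 (chromosome 15, 78926725 to 78930465, gene 16852) had 1558, 1460.2 and 769 CPM in butyrate libraries, against 985, 1136 and 1524 CPM in control libraries. Butyrate library 3 was the lowest of the 6 and control library 3 lay among the highest, so the groups overlapped in full. Its log2 fold change was 0.05 (SE 0.256, edgeR adjusted p = 0.876), and within pairs it was 0.66, 0.36 and -0.99.

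The ratio of 2 members within a library does not depend on how libraries are scaled, and 5 pairs were compared by exact two-sided permutation tests, for which 0.1 is the smallest p that 3 against 3 libraries can give. These are ratios of counts with no correction for length. Lgals1 counts over Lgals3 counts were 4.39, 2.24 and 0.883 in butyrate libraries, against 6.40, 7.46 and 6.34 in control libraries. The groups did not overlap, with a log2 difference of -1.71 (permutation p = 0.1, 0.167 adjusted over the 5 pairs), and butyrate library 3 alone held more Lgals3 than Lgals1 counts.

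S100a11 over Anxa1 was 12.5, 10.1 and 9.73 with butyrate, against 5.34, 6.97 and 5.29 in control. The log2 difference was 0.88 and the groups did not overlap (exact permutation p = 0.1, adjusted 0.167). Anxa5 over Anxa6 was 0.0435, 0.0347 and 0.0486 with butyrate, against 0.0899, 0.0825 and 0.101 in control. That log2 difference was -1.12, again with no overlap (exact permutation p = 0.1, adjusted 0.167).

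For the complex partners S100a10 and Anxa2 the ratio was 2.91, 1.83 and 2.15 with butyrate, against 3.87, 2.43 and 2.05 in control. The ranges overlapped, with a log2 difference of -0.25 (exact permutation p = 0.6, adjusted 0.6) that ran from -0.44 to 0.01 when single libraries were left out, and was 0.01 without control replicate 1. S100a4 over S100a6 was 5.20, 1.66 and 0.84 with butyrate, against 0.92, 1.39 and 1.02 in control. Butyrate library 1 stood far from the other 5, and the log2 difference of 0.82 gave an exact permutation p of 0.5 (adjusted 0.6) and fell to 0.11 without butyrate replicate 1.

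**Figure D2:**
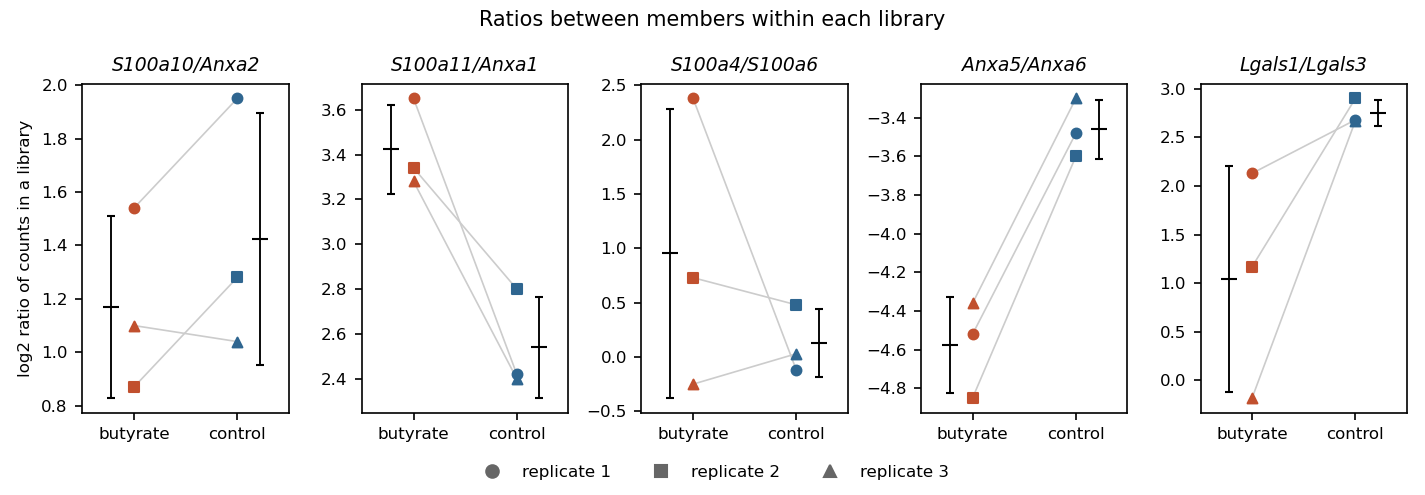
Log2 ratio of counts of 5 member pairs in each library (y axis, log2 ratio), butyrate left of control, with bars at the mean ± SD (n = 3). S100a11/Anxa1 lies higher with butyrate and Anxa5/Anxa6 and Lgals1/Lgals3 lower with no overlap, while S100a10/Anxa2 and S100a4/S100a6 overlap.

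Summed over the 10 members, 0.635%, 0.675% and 0.584% of all counts fell on these genes in butyrate libraries, against 0.431%, 0.354% and 0.530% in control libraries. The groups did not overlap (difference 0.193 percentage points, exact permutation p = 0.1). The 4 S100 members took 0.330% ± 0.0146 with butyrate and 0.226% ± 0.0621 in control, and the 4 annexins 0.112% ± 0.0144 and 0.0737% ± 0.0152 (SD, n = 3 each, exact permutation p = 0.1 for both). For the 2 galectins the shares were 0.189% ± 0.0233 and 0.139% ± 0.0316 (exact permutation p = 0.2).

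Levels of different genes were set in order only per length, as CPM per kilobase of the longest transcript with a RefSeq mRNA accession (RPKM). With butyrate S100a10 led at 2130.3 ± 142 RPKM, with S100a4 (1999 ± 668), Lgals1 (1578 ± 537), S100a6 (749.9 ± 366), S100a11 (559 ± 53.1), Anxa2 (452 ± 85.2) and Lgals3 (441 ± 183) after it, and no neighbours in this stretch were separate in every library. Anxa6 (169 ± 21.1), Anxa1 (16.1 ± 3.17) and Anxa5 (10.2 ± 0.937) closed the order, each below the one before it in every butyrate library (SD, n = 3).

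In control libraries Lgals1 led at 1519 ± 347 RPKM, before S100a4 (1291 ± 435), S100a10 (1252 ± 287) and S100a6 (855 ± 416), whose ranges overlapped. S100a11 (290.3 ± 10.4), Anxa2 (235 ± 116), Anxa6 (139 ± 9.84) and Lgals3 (128 ± 35.5) came next, and S100a6 lay above S100a11 in every library. Anxa5 (18.1 ± 0.64) lay below Lgals3 and above Anxa1 (15.3 ± 2.25) in every control library. Anxa5 was thus the lowest member with butyrate and Anxa1 in control. When the length of all annotated exons was used, Anxa1 was lowest in both groups and S100a4 led with butyrate.

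Members also differed in how much they varied between replicates. The within-group SD of log2 CPM, pooled over both groups, was 0.858 for S100a6, larger than for 99.3% of the genes tested. It was 0.537 for Lgals3, 0.534 for S100a4 and Anxa2 and 0.458 for Lgals1, each larger than for at least 93.2% of genes. S100a11 (0.102) and Anxa5 (0.0989) varied less than the median gene, at 0.158, and Anxa6 (0.15), S100a10 (0.233) and Anxa1 (0.249) lay near it or somewhat above. The 2500 genes at 100 CPM or more had a median of 0.113. Among these abundant genes S100a10 varied more than 89.4%, Anxa6 more than 68.4% and S100a11 more than 42.8%.

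**Figure D3:**
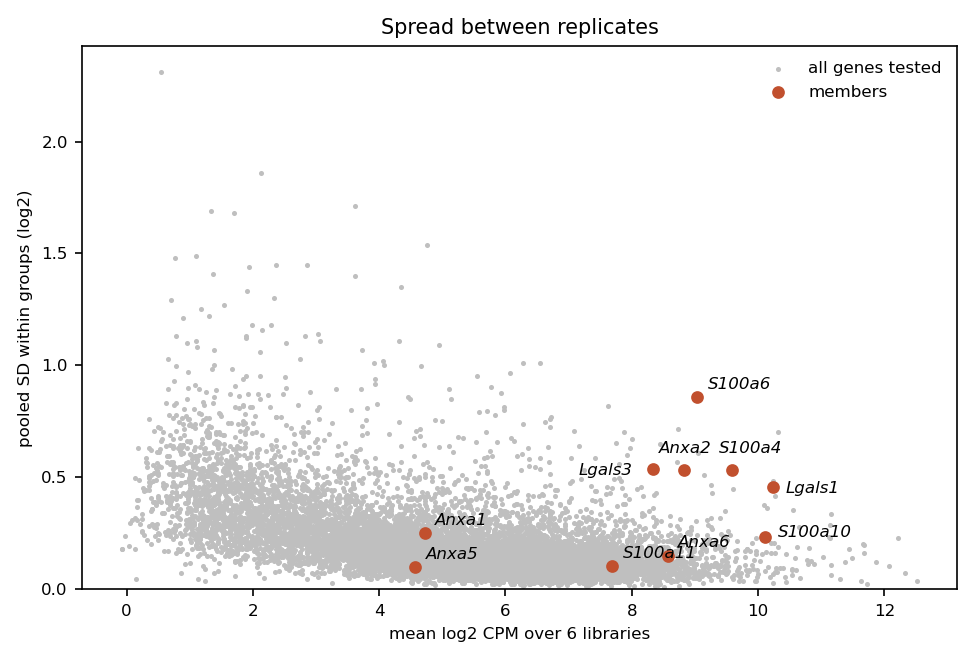
Pooled within-group SD of log2 CPM (y axis) against mean log2 CPM (x axis) for all genes tested (grey) and the 10 members (red, named). S100a6 at 0.858 stands near the top, Lgals3, S100a4, Anxa2 and Lgals1 lie high for their level, and S100a11 (0.102) lies near the median of genes at 100 CPM or more (0.113).

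Most other S100 genes had few or no counts. Of 12 other S100 genes listed, 4 were tested, 3 of them higher and 0 lower, beside 23.5% higher and 22.5% lower of all genes tested. Of the 3, S100a3 and S100a5 reached the filter on low counts through the butyrate libraries alone, so a gene of this kind could only come out higher, and the count is no support for a direction of the family. S100a1, known from heart muscle, had 14.6, 14.3 and 17.2 CPM in butyrate libraries, against 6.30, 6.31 and 5.35 CPM in control libraries (log2 fold change 1.36, SE 0.167, edgeR adjusted p = 0.000331). S100a3, known from the hair follicle, rose to 5.75 ± 1.73 CPM with butyrate, against 0.534 ± 0.199 CPM in control (95 counts against 9 over each group), and S100a5 to 2.52 ± 0.105 CPM, against 0.841 ± 0.49 CPM. Their log2 fold changes were 3.39 (SE 0.412, edgeR adjusted p = 0.000316) and 1.59 (SE 0.429, edgeR adjusted p = 0.015), and both genes are too low to be tested where 5 CPM in 3 libraries is required.

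S100a13, which takes part in secretion without a signal peptide, did not pass (53.6 ± 5.76 CPM with butyrate and 48.8 ± 2.34 CPM in control, adjusted p = 0.307). S100a8 and S100a9, the calprotectin genes of neutrophils, had at most 4 counts in any library. S100b, S100g and S100z were at 0 in all libraries. On chromosome 3, S100a1 (90511034 to 90514330), S100a13 (90514233 to 90524581), S100a3 (90560356 to 90602706), S100a4, S100a5 (90606480 to 90611784) and S100a6 lie in 1 stretch, with S100a14 (90526849 to 90528837) and S100a16 (90537254 to 90543151), both too low to be tested, between S100a13 and S100a3. S100a1 and S100a13 overlap at their ends only, from 90514233 to 90514330. Reads inside that stretch cannot be parted between them where strand was not used.

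Among 8 other annexins, 4 were tested, 2 higher and 1 lower, with a median log2 fold change of 0.33. Over all genes tested, 23.5% were higher and 22.5% lower, and 4 genes are too few to set a family share apart from these. Anxa9 had 14.6, 8.42 and 10.2 CPM in butyrate libraries, against 3.06, 3.89 and 3.41 CPM in control libraries (log2 fold change 1.67, SE 0.263, edgeR adjusted p = 0.00106). Anxa7, or synexin, a membrane-fusing annexin, fell to 73.2 ± 6.03 CPM with butyrate, against 101 ± 5.12 CPM in control (log2 fold change -0.46, edgeR adjusted p = 0.00345). Anxa4 was higher at 38.8 ± 8.14 CPM with butyrate and 26.2 ± 6.11 CPM in control, with overlapping libraries. Its adjusted p of 0.0453 was lost without butyrate replicate 2 (0.138) or 3 (0.132) or control replicate 1 (0.13) or 2 (0.116). Anxa11 did not pass (0.387), and Anxa8, Anxa10 and Anxa13 were at 0.

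The other galectins showed 0 higher and 1 lower of 4 tested, from 7 matched of 8 listed, with a median log2 fold change of -0.02. Beside them stand 23.5% higher and 22.5% lower of all genes tested. Lgals8, which senses broken vesicles by their exposed sugars, had 54.0, 53.3 and 51.0 CPM in butyrate libraries, against 83.0, 72.9 and 72.3 CPM in control libraries (log2 fold change -0.53, SE 0.0891, edgeR adjusted p = 0.00156). Lgals9, whose product binds TIM-3, had 106 ± 10.5 CPM with butyrate and 126 ± 5.59 CPM in control (log2 fold change -0.24, edgeR adjusted p = 0.0575, and 0.0197 with the replicate block). Lgalsl had 40.9 ± 7.46 CPM with butyrate and 29.1 ± 7.28 CPM in control (0.49, adjusted p = 0.0688, and 0.00843 with the block). Lgals4 did not pass (0.507), and Lgals12 was at 0.

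**Figure D4:**
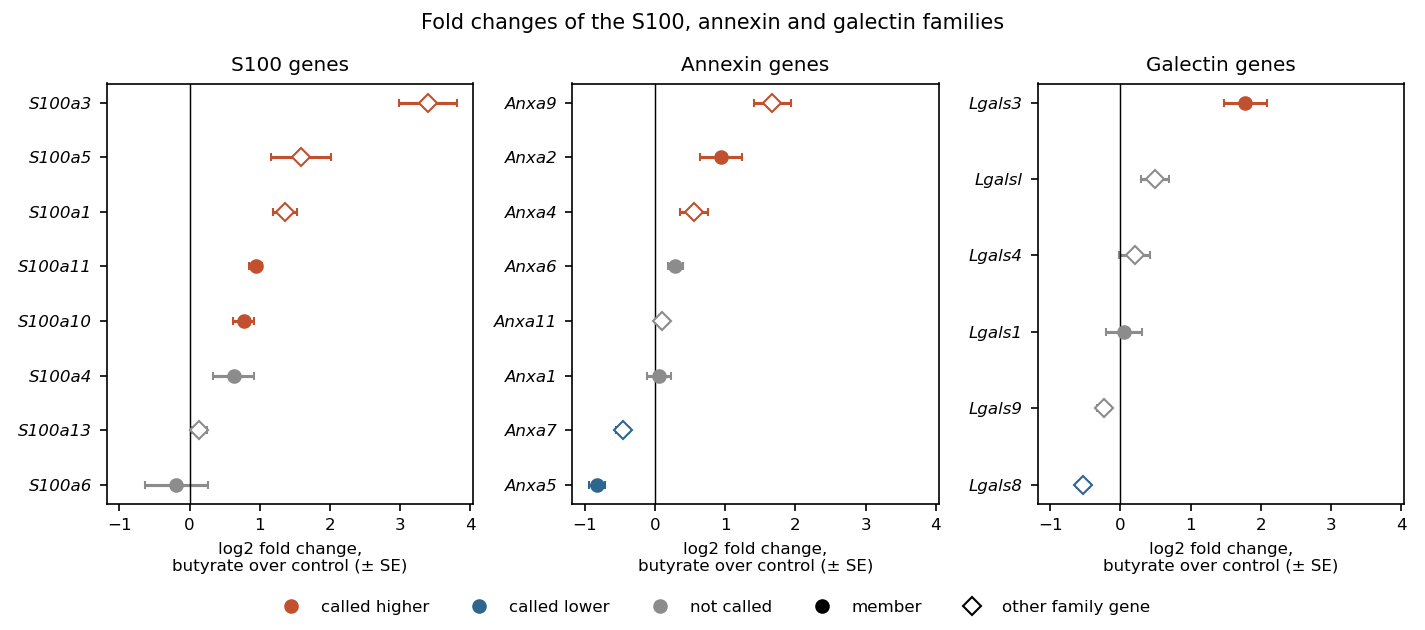
Log2 fold change, butyrate over control, ± SE (x axis) of every tested S100, annexin and galectin gene, with members as filled circles and other family genes as open diamonds, red where called higher, blue where called lower and grey where not called. The tested galectins other than Lgals3 lie at or below 0.49, and S100a3 at 3.39 lies farthest right.

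Known partners of these proteins moved both ways. Of 30 binding partners and receptors, 22 were tested, 6 higher and 6 lower, or 27.3% each way beside 23.5% and 22.5% of all genes tested. Havcr2, which encodes TIM-3, a receptor for galectin-9, had 202, 237 and 290.1 CPM in butyrate libraries, against 22.9, 30.2 and 65.9 CPM in control libraries (log2 fold change 2.60, SE 0.333, edgeR adjusted p = 0.000392). Without control replicate 3 the Havcr2 log2 fold change was 3.20. Ctla4, an inhibitory receptor whose surface retention depends on glycans that galectins bind, had 478 ± 10.2 CPM with butyrate and 233 ± 46.9 CPM in control (1.04, edgeR adjusted p = 0.000395). Ahnak2, a relative of the S100a10 and Anxa2 ligand AHNAK, was higher at 44 counts over the butyrate libraries, against 4 over the control libraries. Ahnak itself was called higher by a small step, at 2495.5 ± 152 CPM with butyrate and 2066 ± 32.4 CPM in control (0.27, edgeR adjusted p = 0.032). Lag3 had 142 ± 34.4 CPM with butyrate and 79.5 ± 18.8 CPM in control (0.84, edgeR adjusted p = 0.0084). How the calls of Ahnak and Lag3 held under the alternatives is not given here. Ahnak2 and Plau, 2 of the 6 higher partners, reached the filter through the butyrate libraries alone. The Plau call (edgeR adjusted p = 0.0342) was lost with no filter (0.0876), with DESeq2 (0.189) and without any single library (0.0626 to 0.108).

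The 3 lower partners with the smallest p were Capns1 and Capn1, which encode calpain subunits, and Lamp1. Capns1, a small calpain subunit, had 144 ± 7.14 CPM with butyrate and 196 ± 11.9 CPM in control (log2 fold change -0.44, edgeR adjusted p = 0.00273). Capn1, a large subunit, had 85.4 ± 5.15 CPM and 111 ± 4.92 CPM (-0.38, edgeR adjusted p = 0.00536). Other calpain genes were not in the list. Lamp1, a heavily glycosylated lysosomal membrane protein, had 178 ± 12.5 CPM and 232 ± 14.8 CPM (-0.38, adjusted p = 0.00771). Of the galectin-binding glycoproteins, Ptprc, which encodes CD45, had 713, 932 and 698 CPM in butyrate libraries, against 1146, 1014 and 1007 CPM in control libraries (-0.43, edgeR adjusted p = 0.0204). That call was lost without butyrate replicate 1 (0.0558) or 3 (0.0617) or control replicate 1 (0.0754). Cd7, a receptor for galectin-1, had the largest fall of the 6 lower partners, at 24.0, 25.3 and 11.3 CPM in butyrate libraries, against 54.7, 29.7 and 31.3 CPM in control libraries (-0.93, edgeR adjusted p = 0.0391). Its call was lost with upper quartile scaling (0.0544), with the robust fit (0.0802), without butyrate replicate 3 (-0.64, adjusted p = 0.0886) and without control replicate 1 (-0.58, adjusted p = 0.133). Spn, which encodes CD43, had 1078 ± 73.6 CPM with butyrate and 1362 ± 3.12 CPM in control (-0.34, edgeR adjusted p = 0.0117).

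Enzymes that build galectin ligands were called about as often as genes at large. All 20 listed were tested, and 4 were higher and 5 lower, which is 45.0% called beside 45.9% of all genes tested, with a median log2 fold change of -0.06. Mgat3, which adds the bisecting N-glycan branch, had 10.7, 12.9 and 11.5 CPM in butyrate libraries, against 2.88, 1.85 and 2.43 CPM in control libraries (log2 fold change 2.28, SE 0.224, edgeR adjusted p = 0.00012). Gcnt1, which makes core 2 O-glycans, had 64.4 ± 10.4 CPM with butyrate and 27.0 ± 11.1 CPM in control (1.26, adjusted p = 0.00322), and the N-glycan trimming enzyme gene Man2a2 191 ± 0.77 CPM and 128 ± 21 CPM (0.58, adjusted p = 0.00374).

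B3gnt5, which starts lacto-series glycolipids, fell to 21.4 ± 2.68 CPM with butyrate, against 42.5 ± 5.14 CPM in control (log2 fold change -0.99, edgeR adjusted p = 0.000536). The sialyltransferase gene St3gal6 fell to 10.3 ± 3.55 CPM, against 27.2 ± 1.75 CPM (-1.40, adjusted p = 0.000922). C1galt1c1, which encodes Cosmc, the chaperone of core 1 O-glycan synthesis, fell to 19.3 ± 1.61 CPM, against 27.3 ± 1.99 CPM (-0.50, adjusted p = 0.00823).

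For each member the most similar genes were sought by the root mean square difference of mean-centred log2 CPM over the 6 libraries, among 9413 genes. Edem2 lay nearest to S100a11 (0.0268), Tgfbr1 (0.0445) and Parp9 (0.0462) to Anxa5, Riox1 (0.0476) and Mtmr10 (0.0498) to Anxa6, and Bmf (0.0594) and Trim62 (0.0718) to S100a10. Zc3h8 (0.0751) and Trib3 (0.0771) were nearest to Anxa1. P2ry12 lay at 0.184 from Anxa2, and Lgals3 was followed most closely by Tmem37 (0.149) and the chemokine gene Ccl4 (0.159). Psmc3 (0.145) and Pik3ap1 (0.154) were nearest to Lgals1. The least close matches were those of S100a4, with Apbb1 (0.232) and Ccdc22 (0.24), and of S100a6, with Lilrb4a (0.362) and Fcho2 (0.416).

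The libraries held 5401428, 5809517 and 5383380 counts with butyrate, against 5566196, 5415021 and 6244350 in control, and a count of 3, the limit that a count of 0 allows, stands for 0.487 to 0.556 CPM (counting error only). Butyrate and control libraries separated along the first principal component, which carried 80.1% of the variance. All 10 T cell markers passed the filter, at a summed 5521 to 6674 CPM with butyrate and 6286 to 6510 CPM in control, with 0 higher and 2 lower, Cd3e (206 ± 10 CPM and 314 ± 27.4 CPM) and Cd247 (213 ± 9.08 CPM and 327 ± 14.4 CPM). The median log2 fold change of the T cell markers was -0.38, and 8 were not called. Granulocyte markers summed to 10.7 to 18.7 CPM with butyrate and 0.36 to 1.95 CPM in control, with Camp and Ltf at 0 and with Cxcr2 and Siglecf, the 2 tested of 12, both higher. NK cell markers summed to 20.2 to 28.1 CPM and 9.18 to 17.7 CPM (Klrb1c, Tyrobp and Klre1 higher of 4 tested, Ncr1 at most 3 counts), and B cell markers to 14.4 to 22.4 CPM and 15.4 to 21.4 CPM (Cd22 higher of 2 tested, Pax5 at 0). Erythroid and platelet markers summed to 8.25 to 51.6 CPM and 1.48 to 8.11 CPM (Epor higher of 2 tested), and stromal and endothelial markers to 52.4 to 69.0 CPM and 48.0 to 70.4 CPM (Pdgfrb higher of 2 tested, Col1a2, Col3a1 and Cdh5 at 0). The erythroid and platelet sum was highest in butyrate library 3, where Ppbp had 29.6 CPM, against 4.07 and 1.55 CPM in butyrate libraries 1 and 2. Ppbp was not called (edgeR adjusted p = 0.068). Cxcr2, Siglecf, Cd22, Epor and Pdgfrb reached the filter through the butyrate libraries alone, so they could only come out higher. Tyrobp and Klre1 each reached its cutoff in 3 butyrate libraries and 1 control library, so the control libraries alone would not have admitted them. The calls of Tyrobp and Klre1 were lost when some single libraries were left out, with adjusted p up to 0.139 for Tyrobp and 0.0857 for Klre1. These other lists had only 2 or 4 tested genes each, too few to set beside the shares of all genes tested. The part of other cell types in the members' changes was not tested.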

How the data were processed

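The values are raw read counts, deposited by the authors as 1 table of gene numbers by library. Per the submitters' processing notes, CASAVA, TopHat, Picard, featureCounts, Subread and edgeR were used with mm10; the sources used here do not give versions, strand setting or how reads shared between copies were counted, so counts of S100, annexin and galectin paralogs are uncertain to that extent. Per the labels' protocols, libraries were made from 1 µg of total RNA with a TruSeq kit. Of 27179 gene numbers, 25275 were named from RefSeq (GRCm38.p6) and 18 from GENCODE; the other 1886 held 0.961% to 1.20% of the counts and stayed in the fits. Anxa2, Anxa5, Anxa6 and Lgals1 overlap annotated miRNA or lncRNA genes; of these Mir3109, inside Anxa2, held 0 counts with butyrate and 1 in control, and the rest are not analysed here.

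Counts were fitted with edgeR 4.0.16 (R 4.3.3; quasi-likelihood F test, TMM, filterByExpr, Benjamini-Hochberg over 11740 genes, call at 0.05), with the SE as the size of the log2 fold change over the square root of F. Ratios and shares were compared by exact permutation tests. Replicates were distinct libraries: chi-square over genes, divided by its degrees of freedom, was 5.43 to 10.6 within groups. After removal of group means, same-numbered libraries correlated at 0.362, 0.197 and 0.353 and others at -0.301 to -0.0746. Deviations from a group mean cancel within the group, so part of the negative values is built in. The numbers were taken as a possible pairing from the data, though the labels do not say what a number marks. The main fit, the exact permutation tests and the pooled SD used the group only. Replicate numbers entered the within-pair values and some alternatives. Alternatives were other scalings, filters, DESeq2 1.42.0, limma 3.58.1 (voom), robust edgeR, the replicate block and each library left out; exon length for RPKM was added after seeing the data.

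Members and lists were chosen with earlier results of these data known. The naming rule took all members, up to 3 called genes per list and direction by smallest p, and the 2 genes most similar to each member with a mean of at least 10 CPM. Uncalled family genes, Ptprc, Spn, Cd7, Plau, Ahnak, Lag3, Ppbp and Lyz2 were named after their values were seen. Gene number 100502897, second nearest to S100a11, has no name in the sources used here. A gene taken by this rule and a marker from the lists are not reported here.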

Additional observations from a re-analysis of the deposited data

How the results depend on the processing

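S100a10, S100a11, Anxa5 and Lgals3 kept their direction and call in all 15 alternatives tried for them (highest adjusted p 0.0134, 0.00105, 0.00306 and 0.0121). Anxa2 kept its direction and lost its call in 6. The count of members called higher was 3 to 6, with 6 under the replicate block, and the count called lower was 1 throughout. Under the replicate block S100a4, Anxa6, Lgals9, Lgalsl and Apbb1 were called; the block ended no call of a member. Over all genes the block called 3220 higher and 3095 lower. The other S100 genes called higher numbered 1 under the stricter filter of 5 CPM, since 2 are not tested there. The other annexins called higher numbered 1 to 2 with single libraries left out. Among other galectins, 1 was called higher with upper quartile scaling and with the replicate block, and 0 to 1 with single libraries left out; 2 were called lower with no filter and with the block, and 1 to 2 with single libraries left out. Leaving out single libraries gave log2 fold changes of -0.53 to 0.16 for S100a6, -0.10 to 0.19 for Anxa1, -0.12 to 0.31 for Lgals1, -0.45 to 0.02 for Fcho2, -0.13 to 0.10 for Trib3 (and -0.02 with no filter), -0.10 to 0.32 for Pik3ap1, -0.28 to 1.19 for Lyz2, and a log2 ratio difference of -0.44 to 0.01 for S100a10 over Anxa2. The cause of these moves was not tested. Paired sign-flip tests of the 5 ratios, whose smallest p is 0.25, gave 0.25 to 0.75. Each member had at least 93 counts in every library, while many other family genes were too low to be tested at this depth.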
